A study of Mus musculus with 12 samples.

Results

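Kcnma1, Hcn4, Trpm4 and Abcc8 are 4 genes that set how readily a nerve cell fires. They were taken by their gene symbols from the deposited gene tables of an RNA-seq comparison of BK KO and WT mice, which name 1017 different genes. All 4 were listed for hippocampus, and Kcnma1 alone was listed for cortex. The other three genes were not analysed here in cortex.

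A BK channel is a large potassium channel that opens when the membrane is depolarised and calcium rises inside the cell. Its current helps to repolarise the membrane after an action potential. HCN channels carry an inward cation current that opens on hyperpolarisation and drives rhythmic firing. TRPM4 passes sodium inward when calcium rises, and KATP channels, which hold the sulfonylurea receptor encoded by Abcc8, pass potassium outward when the cell is short of ATP. KATP current quiets a nerve cell, and HCN and TRPM4 currents depolarise it. The paper states that BK channels can both raise and lower neuronal excitability.

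RNA came from hippocampus and cortex of adult C57BL/6 mice of both genotypes, 3 libraries for each genotype and tissue, 12 in all. WT mice carried the intact kcnma1 gene on both alleles. BK KO mice were kcnma1-/- in every cell, from a CRISPR/Cas9 line with a small frameshift deletion in exon 4, and the methods describe both genotypes as littermates of BK+/- parents. The methods took both tissues from 3 mice of each genotype, so the tissues are not independent samples, and the labels do not tie a library number to a mouse. The mice used for RNA are described as adult with no sex stated, while BK KO mice of the behavioural tests and recordings were males of 3 months. Each table lists only genes that the authors called changed on these same libraries, 652 in hippocampus and 561 in cortex, so each test below describes listed genes and is no independent evidence of a change. The value of each library was taken as FPKM, the fragments of a gene per length of its transcript and per size of the library. Sequencing depth is unknown, so counting error cannot be given. Markers of neurons, astrocytes, microglia and choroid plexus had 0 listed genes in the hippocampus table, so its tissue label could not be checked from them.

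The targeted exon is shown because the knockout rests on it. In GENCODE release M21, Kcnma1 lies on the minus strand of chromosome 14 of GRCm38 from 23289431 to 24014491, with 31 protein-coding transcripts. Exon 4 holds 94 bases of coding sequence, is the exon of that number in 19 of these transcripts and is present in 29. The reference sequence of the transcript is given with exon 4 in capitals, between 15 bases each of exons 3 and 5 in lower case.
Kcnma1 exon 4 (chr14:23591588-23591681, minus strand, GRCm38): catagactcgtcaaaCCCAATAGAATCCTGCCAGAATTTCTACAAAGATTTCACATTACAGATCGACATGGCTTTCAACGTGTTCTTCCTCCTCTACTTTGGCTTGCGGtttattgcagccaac
The sequence of the edited allele was not analysed here. The FPKM of a gene counts fragments from all its exons, so the Kcnma1 values are those of the transcript that remained and do not show whether it held the deletion.

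BK KO libraries were compared with WT libraries by limma on log2(FPKM + 1), where 1 is the pseudocount. A gene passed the test with a log2 fold change beyond 0.58 in either direction and an unadjusted limma p under 0.05. By this rule 3 of the 4 genes passed in hippocampus, Hcn4 higher and Kcnma1 and Abcc8 lower, where 42.6% of all listed genes passed, 20.7% higher and 21.9% lower. In cortex Kcnma1 passed, as did 30.8% of listed genes, 20.0% lower. The 2 genotypes did not overlap for any of the 4 genes in hippocampus or for Kcnma1 in cortex, which was also the case for 79.9% of listed genes in hippocampus (32.8% above and 47.1% below WT) and 80.6% in cortex (24.2% above and 56.3% below). All 5 comparisons had a limma adjusted p under 0.05, as did 71.6% of listed genes in hippocampus and 61.3% in cortex. The smallest p that a two-sided exact permutation test of 3 against 3 libraries can give is 0.1, and each of the 5 comparisons gave it. With 4 genes chosen while results were known, these shares are a description.

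Kcnma1, which encodes the pore of the BK channel, was compared first, since it is the targeted gene. In WT hippocampus its FPKM was 11.3, 10.6 and 9.67 in replicates 1 to 3. In BK KO hippocampus it was 2.54, 2.82 and 2.81. No BK KO library came near a WT library, so each library lay with its genotype label. Kcnma1 was listed because it differed between these labels, which limits this as a check of them. The mean FPKM fell from 10.5 ± 0.822 to 2.73 ± 0.156 FPKM (SD, n = 3), so that 25.8% of the WT level remained. Each BK KO library held between 24.1% and 26.8% of the WT mean. On the log2(FPKM + 1) scale the change was -1.63 (SE 0.10, 95% confidence interval -1.88 to -1.38, limma adjusted p = 0.000844 over the listed genes). By p-value Kcnma1 ranked 1 of the 652 listed genes, and by size on this scale 1 of the 380 that were lower in BK KO mice. By the ratio of mean FPKM, which weighs low genes more, it ranked 14 of 379. The authors' base means, counts scaled by library size, were 4888 in WT and 1212 in BK KO hippocampus.

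Cortex gave almost the same picture. The FPKM of Kcnma1 was 11.98, 9.82 and 11.85 in the WT libraries. It was 3.09, 2.97 and 2.76 in the BK KO libraries. Again the genotypes lay far apart, and the WT libraries spread more than the BK KO libraries. The mean fell from 11.2 ± 1.21 to 2.94 ± 0.168 FPKM (SD, n = 3), which left 26.2% of the WT level. The log2 fold change was -1.63 (SE 0.10, 95% confidence interval -1.87 to -1.38, limma adjusted p = 0.00178), and by size on this scale it ranked 6 among the 395 genes that were lower in BK KO cortex, against 32 by the ratio of mean FPKM. The authors' base means were 5427 and 1364.

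The question whether the 2 tissues lost Kcnma1 transcript to the same extent was put to an interaction fit over the 196 genes listed in both tables. The log2 change in cortex minus that in hippocampus was 0.0011 (SE 0.14, 95% confidence interval -0.32 to 0.32, limma adjusted p = 0.998). That fit took the 12 libraries as independent. With same-numbered hippocampus and cortex libraries of a genotype taken as 1 mouse, the interval was -0.34 to 0.34 (SE 0.14, limma adjusted p = 0.997). Differences of up to 0.34 in either direction thus remain possible. The first fit gave 0 genes with an unadjusted p under 0.05 and the second gave 4 of 196, and genes had entered both by being called in both tissues. Skeletal muscle markers moved with genotype in cortex, where 17 of 30 were listed, all with a lower mean in BK KO mice. Their summed FPKM was 31.9 to 96.3 in WT and 9.95 to 12.4 in BK KO libraries, Ckm, Myl1 and Mylk2 were listed at 0 in at least 1 BK KO library, and the part of muscle RNA in the cortical Kcnma1 value was not tested. In bulk tissue fewer cells of a type and less RNA per cell cannot be told apart. Markers of other cell types also moved in cortex. The sum of the 2 listed of 10 oligodendrocyte markers was 20.8 to 29.5 FPKM in WT and 11.2 to 16.9 in BK KO libraries, and that of the 2 listed of 12 endothelial markers 5.36 to 6.55 against 3.44 to 4.003. The 1 listed interneuron marker of 10, Gad2, had 12.9 to 15.6 FPKM in WT and 19.1 to 33.1 in BK KO libraries, and the 1 listed astrocyte marker of 10, Gfap, 23.1 to 50.4 against 50.9 to 92.2. The 1 listed microglial marker of 10, Itgam, overlapped between genotypes, at 3.99 to 6.47 and 2.77 to 4.62 FPKM. The part of these markers in the cortical Kcnma1 value was not tested. Kcnma1 shares 1016 exon bases with 4930519K11Rik on the opposite strand, and the library kit named does not mark strand, so reads of the 2 genes there cannot be told apart.

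**Figure D1:**
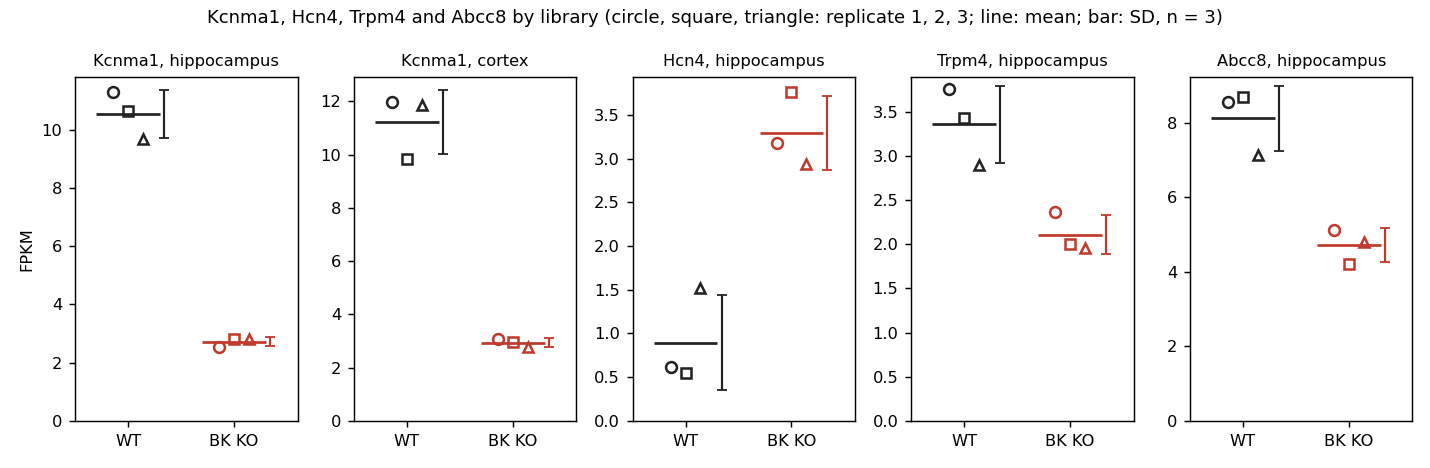
FPKM (y axis, from 0, a separate scale for each panel) of the 4 genes in WT (black) and BK KO (red) libraries, with each replicate as a symbol, the mean as a line and the SD of 3 libraries as a bar. In every panel the genotypes do not overlap, and the WT replicate 3 triangle of Hcn4 stands at 1.53 FPKM, above the other WT libraries.

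Hcn4, the pacemaker-type HCN subunit best known from the sinoatrial node and the thalamus, was higher in BK KO mice, unlike the other three genes. Its FPKM in WT hippocampus was 0.621, 0.542 and 1.53. In BK KO hippocampus it was 3.18, 3.76 and 2.94. WT replicate 3 was higher than the other WT libraries but stayed below every BK KO library. The mean rose 3.67-fold, from 0.896 ± 0.546 to 3.29 ± 0.423 FPKM (SD, n = 3). On the log2(FPKM + 1) scale, which understates changes of low values, the rise was 1.21 (SE 0.20, 95% confidence interval 0.73 to 1.70, limma adjusted p = 0.0142), and by size on this scale it ranked 13 among the 272 listed genes that were higher, against 32 of 273 by the ratio of mean FPKM. It was 1.44 without WT replicate 3 and 1.89 with a pseudocount of 0.1. Hcn4 lies on chromosome 9 of GRCm38 from 58823412 to 58863175 on the plus strand, with 1 annotated transcript of 6118 bases and no overlapping gene.

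No other HCN gene or HCN auxiliary gene of the 6 on the list was listed in either table. The interneuron markers that were listed were higher in the same BK KO libraries. Of 10 such markers Gad2, a GABA-synthesising enzyme, and Reln were listed, and their summed FPKM was 18.7 to 21.4 in WT and 39.0 to 51.1 in BK KO hippocampus. Tac1, the 1 listed striatal marker of 10, stood at 26.6 FPKM in WT replicate 3 against 3.97 and 3.29 in the other WT libraries, and at 18.9 to 36.4 in BK KO libraries. Of 12 thalamus and habenula markers 0 were listed. The part of these markers in the Hcn4 value was not tested.

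Abcc8, the regulatory subunit through which sulfonylurea drugs close KATP channels, was lower in BK KO hippocampus. Its FPKM was 8.54, 8.69 and 7.12 in the WT libraries. It was 5.13, 4.22 and 4.80 in the BK KO libraries. The lowest WT library, replicate 3, stood well above the highest BK KO library. The mean fell from 8.12 ± 0.865 to 4.72 ± 0.462 FPKM (SD, n = 3), a 1.72-fold difference. The log2 fold change was -0.67 (SE 0.12, 95% confidence interval -0.96 to -0.38, limma adjusted p = 0.0150). Abcc8 lies on the minus strand of chromosome 7 of GRCm38 from 46104523 to 46180033.

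Of 4 KATP genes 3 were listed in hippocampus, all with a lower mean in BK KO mice, and 1, Abcc8, passed the test. Of all 652 listed hippocampus genes 380 were lower, and 42.6% passed. Abcc9, the sulfonylurea receptor of vascular KATP channels, stood at 1.11 ± 0.132 FPKM in WT hippocampus against 0.746 ± 0.0516 in BK KO hippocampus (SD, n = 3). Kcnj8, the pore subunit that pairs with it in pericytes, stood at 2.28 ± 0.420 against 1.32 ± 0.277 FPKM (SD, n = 3). Their log2 fold changes were -0.27 and -0.50, and Kcnj8 passed without WT replicate 1 (-0.60). This scale shrinks the change of genes at such levels. Of the WT mean FPKM, Kcnj8 kept 57.9%, Abcc8 58.1% and Abcc9 67.2%. With a pseudocount of 0.1, where 84.0% of all listed genes passed, Kcnj8 passed at -0.75, beside -0.77 for Abcc8 and -0.51 for Abcc9. Both are also pericyte markers, of which 4 of 12 were listed, with summed FPKM of 59.4 to 63.2 in WT and 35.9 to 45.0 in BK KO libraries. Of 12 endothelial markers 2 were listed, with sums of 5.09 to 6.81 in WT and 3.13 to 3.91 in BK KO libraries. None of these markers was at 0, and their part in the Abcc8 value was not tested.

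Trpm4, the calcium-activated cation channel, was lower by a smaller amount that depended on the scale. Its FPKM was 3.76, 3.43 and 2.90 in WT hippocampus. It was 2.37, 2.00 and 1.96 in BK KO hippocampus. The groups did not overlap, although the gap between the nearest libraries was narrow. The means were 3.36 ± 0.436 and 2.11 ± 0.226 FPKM (SD, n = 3), a 1.59-fold difference. The log2 fold change was -0.49 (SE 0.12, 95% confidence interval -0.77 to -0.20, limma adjusted p = 0.0192), which is under the fold limit of 0.58. With a pseudocount of 0.1 it was -0.64 and past that limit. Trpm4 lies on the minus strand of chromosome 7 of GRCm38 from 45302632 to 45333780, 771 kb from Abcc8. TRP channel genes held 3 listed members of 27 in hippocampus, of which 0 passed the test, beside 42.6% of all listed genes. The others were Trpc7 (log2 fold change 0.37) and Trpv6 (-0.43). With a pseudocount of 0.1 all 3 passed, Trpc7 at 0.79 and Trpv6 at -1.03, but so did 84.0% of all listed genes. Trpv6 held 43.0% of its WT mean FPKM.

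**Figure D2:**
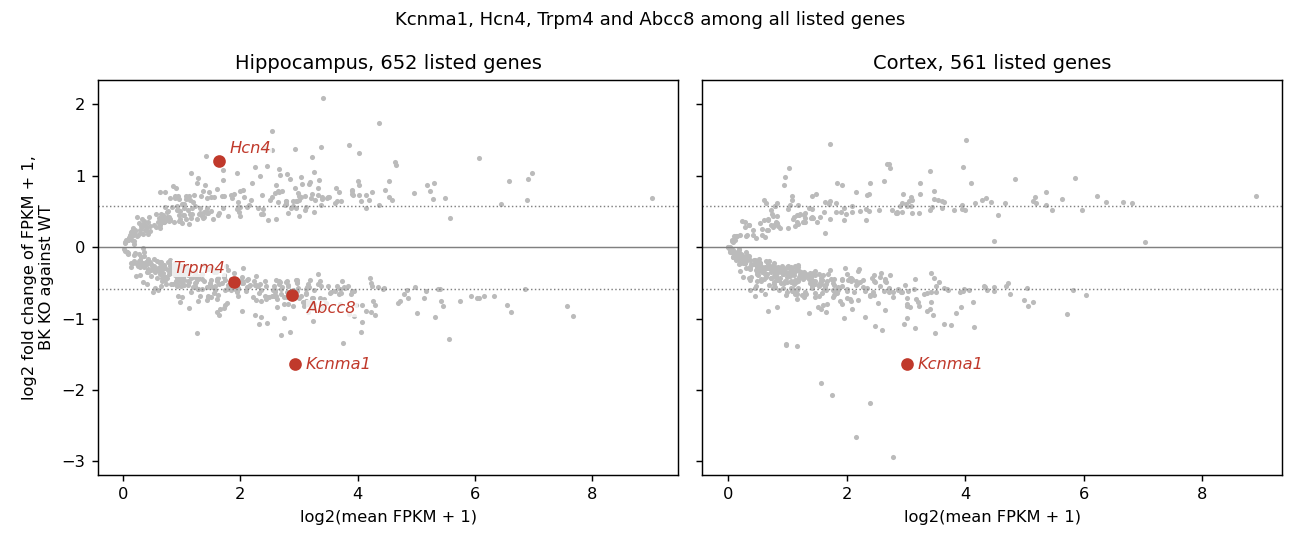
Log2 fold change of FPKM + 1 (y axis, BK KO against WT) against log2(mean FPKM + 1) over 6 libraries (x axis) for the 652 genes listed in hippocampus and the 561 listed in cortex, with the 4 genes in red and dotted lines at the fold limit of 0.58. Kcnma1 is the lowest point of the hippocampus panel at -1.63, Hcn4 lies among the larger rises at 1.21, and Trpm4 at -0.49 lies inside the dotted lines.

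The 4 genes were put in order by FPKM, which is meant to be scaled to length. The transcript lengths used by the authors are not given in the sources used here. Coding transcripts of Kcnma1 run from 890 to 12094 bases, so the order between genes is uncertain. In WT hippocampus Kcnma1 was highest, followed by Abcc8, Trpm4 and Hcn4, and no library of one gene reached the range of the next. In BK KO hippocampus Abcc8 came first by FPKM, then Hcn4, Kcnma1 and Trpm4. The authors' base means, not scaled to length, gave another order there. They were 1212 for Kcnma1, 522 for Abcc8, 233 for Trpm4 and 226 for Hcn4. The 1 annotated Hcn4 transcript has 6118 bases, and the longest coding Trpm4 transcript has 4234. By these lengths Hcn4 would not stand above Trpm4, so its place by FPKM is not secure. The ranges of Hcn4 and Kcnma1 did not overlap there, but the lowest Hcn4 library at 2.94 FPKM was only just above the highest Kcnma1 library at 2.82 FPKM, a gap under the SD of Hcn4. The gap between Kcnma1 and the highest Trpm4 library was also under the SD of Trpm4.

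The genes that followed the same course over the 6 libraries were sought among those with a mean of at least 1 FPKM, 442 in hippocampus and 344 in cortex with the member itself left out. The measure was the root mean square difference of log2(FPKM + 1), set to the WT mean of each gene. For Kcnma1 the nearest in hippocampus were Coro6 at 0.364, Psrc1 at 0.397 and Gm765 at 0.433, all with smaller falls than Kcnma1 on this scale. In cortex they were LOC108167575 at 0.363, Apln at 0.368 and Atp2a1 at 0.424. Each of these distances was larger than those of the genes named for Hcn4, Trpm4 and Abcc8.

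Hcn4 had as its nearest genes Gad2 at 0.169, the synaptic vesicle gene Sv2c at 0.189 and the secretogranin gene Scg2 at 0.269. Gad2 rose from 14.7 ± 1.79 to 33.8 ± 3.84 FPKM (SD, n = 3), and Sv2c from 3.24 ± 0.534 to 9.98 ± 1.70 FPKM (SD, n = 3). Trpm4 lay nearest to Strbp at 0.0589, the collagen gene Col19a1 at 0.0622 and the histone deacetylase gene Hdac7 at 0.0721. Abcc8 lay nearest to the collagen gene Col15a1 at 0.0678, to Ssh3 at 0.0803 and to Adamts10 at 0.0858. Genes with small changes lie close together on this measure, so the short distances of Trpm4 and Abcc8 are not comparable with those of Kcnma1 and Hcn4.

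Further ion channel genes and genes of intracellular calcium stores were taken from 11 lists of 222 genes in all. In hippocampus 25 of them were listed, the 4 genes included, and 14 passed the test, 9 higher and 5 lower in BK KO mice. This is 56.0% of the 25, against 42.6% of all listed genes, and the median log2 fold change was 0.13 against -0.27. Without the 4 genes, 11 of 21 passed, 8 higher and 3 lower. The count of 14 was 8 of 25 without BK KO replicate 2, or 32.0% against 36.0% of all listed genes. It was 12 of 25 without WT replicate 3, or 48.0% against 37.1%, and 23 of 25 with a pseudocount of 0.1, or 92.0% against 84.0%.

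The few voltage-gated potassium channel genes that were listed were mostly higher in BK KO hippocampus. Of 53 on the list 8 were listed, and 6 of these were higher, where 272 of all 652 listed genes were. Of the 8, 5 passed as higher, where 20.7% of all listed genes did so. Kcna5, a delayed rectifier, had 1.099, 1.631 and 3.425 FPKM in WT and 7.56, 3.54 and 5.41 FPKM in BK KO libraries, with WT replicate 3 just under the lowest BK KO library, and a log2 fold change of 1.12 (SE 0.33, limma adjusted p = 0.0262). Kcna3, of the same family, rose from 3.70 ± 1.57 to 6.81 ± 0.351 FPKM (SD, n = 3). Kcnd3, which carries the fast-inactivating A-type current that delays firing, rose from 7.26 ± 0.766 to 11.5 ± 1.02 FPKM (SD, n = 3). The electrically silent subunit gene Kcns2 and the accessory subunit gene Kcne1l rose by 0.60 and 0.73 on the log2 scale. The silent subunit genes Kcng3 (log2 fold change 0.27) and Kcns3 (-0.24) did not pass. Kcna5 passed with any library left out. Without BK KO replicate 2 the others that rose no longer passed, at 0.76 for Kcna3, 0.54 for Kcnd3, 0.49 for Kcns2 and 0.60 for Kcne1l. Kcna3 (0.50) and Kcnd3 (0.53) also failed without WT replicate 3, Kcns2 without WT replicate 1 (0.50), and Kcne1l without WT replicate 2 (0.63). Values under 0.58 failed on size, the others on p.

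Inward rectifier and background potassium channels hold the resting potential, and the list of them used here had 27 genes. Both of its genes that were listed fell in BK KO hippocampus, where 380 of all 652 listed genes were lower. Kcnj8 was counted with the KATP genes and not here. Kcnj9, a subunit of the G protein-gated inward rectifier, had the highest level of all listed channel genes and fell from 53.1 ± 13.6 to 30.7 ± 4.96 FPKM (SD, n = 3). Kcnk4, the mechanically gated background channel TRAAK, had 7.63, 4.29 and 5.57 FPKM in WT and 2.46, 2.49 and 2.24 FPKM in BK KO libraries, which is 41.1% of the WT mean and a log2 fold change of -0.98 (SE 0.18, limma adjusted p = 0.0150). The sodium-activated potassium channel gene Kcnt2 had a log2 fold change of -0.46 and did not pass. No auxiliary BK subunit gene was listed in either table, Kcnma1 being the 1 listed gene of 9.

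Cacng4, whose product accompanies AMPA receptors, had 8.49, 8.19 and 18.6 FPKM in WT and 20.4, 18.1 and 17.8 FPKM in BK KO libraries. Its WT replicate 3 lay within the BK KO range, the groups overlapped, and the limma adjusted p of 0.0542 did not reach 0.05. The calcium-activated chloride channel gene Ano2 rose by 0.72 on the log2 scale. Scn10a and Cacna1s stayed under 0.3 FPKM in every library and did not pass, and the calcium pump gene Atp2a3 had -0.51. Ano2 failed without WT replicate 1 (0.48) or BK KO replicate 3 (0.62), and Cacng4 failed without any library but WT replicate 3 (0.54 to 0.76), whose removal gave 1.08. Atp2a3 passed without BK KO replicate 3 (-0.61).

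**Figure D3:**
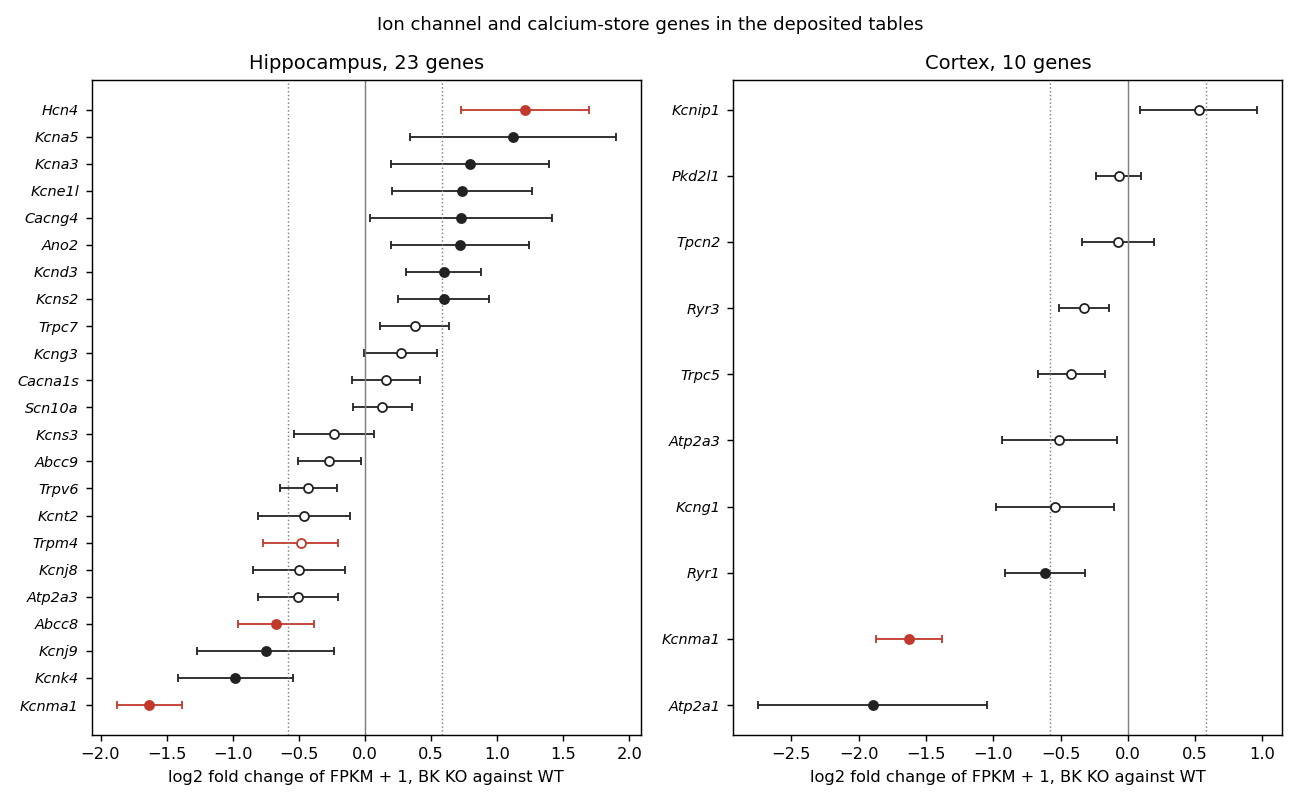
Log2 fold change of FPKM + 1 in BK KO against WT (x axis, points) with 95% confidence intervals (bars) for 23 of the 25 channel and calcium-store genes listed in hippocampus and the 10 listed in cortex, ordered by size. Filled points passed the test, red marks the 4 genes, and dotted lines stand at 0.58 in each direction. Kcnma1 is the lowest in hippocampus at -1.63 and Hcn4 the highest at 1.21, while in cortex Atp2a1 at -1.90 lies below Kcnma1.

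In cortex 10 of the 222 genes were listed, 9 with a lower and 1 with a higher mean in BK KO mice. The test was passed by 3 of them, or 30.0% against 30.8% of all listed genes, namely Kcnma1, Ryr1 and Atp2a1. Ryr1 and Atp2a1 encode the calcium release channel and the calcium pump of skeletal muscle, are on the muscle marker list and changed by -0.62 and -1.90. Atp2a1 had 6.65, 2.21 and 2.37 FPKM in WT and 0.0850, 0.360 and 0.0879 FPKM in BK KO cortex. The gene that was higher, Kcnip1, a partner of A-type potassium channels, had a log2 fold change of 0.52 and did not pass. The lower genes that did not pass were Trpc5, Pkd2l1, Kcng1, Ryr3, Atp2a3 and Tpcn2, from -0.07 to -0.54. Leaving out 1 library ended the call of Ryr1 without WT replicate 2 (-0.56) or BK KO replicate 3 (-0.53). It let Kcnip1 pass without BK KO replicate 1 (0.70), Kcng1 without WT replicate 2 (-0.68) or BK KO replicate 3 (-0.67), and Atp2a3 without replicate 3 of WT (-0.65) or BK KO (-0.63). Of all 222 genes only Kcnma1 and Atp2a3 were listed in both tables, and the Atp2a3 log2 fold change was -0.51 in each.

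**Figure D4:**
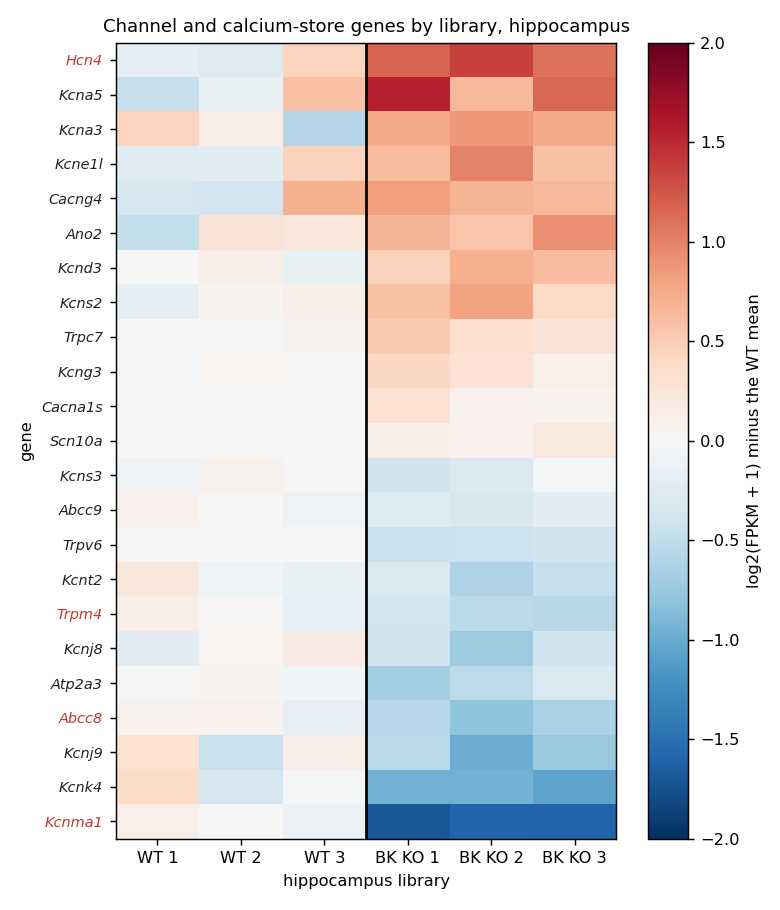
Log2(FPKM + 1) minus the WT mean of each gene (colour, red above and blue below, from -2 to 2) for 23 of the 25 channel and calcium-store genes (rows) in the 6 hippocampus libraries (columns), ordered by fold change. The BK KO columns are uniform for Kcnma1, while WT replicate 3 is on the red side for Hcn4, Kcna5, Kcne1l and Cacng4 and on the blue side for Kcna3.

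The tables annotate genes with KEGG pathways and GO terms. Kcnma1, Trpm4 and Abcc8 carried the insulin secretion pathway, in which KATP channels close as glucose rises and calcium entry then releases insulin. This pathway was carried by 7 hippocampus genes, these 3 included, 5 lower and 2 higher, of which 4 passed the test. Of all 652 listed hippocampus genes 380 were lower, and 42.6% passed. Stx1a, a syntaxin of the vesicle fusion machinery, fell from 119 ± 35.8 to 66.8 ± 14.98 FPKM (SD, n = 3). Camk2d, a calcium and calmodulin-dependent kinase, passed as higher with a log2 fold change of 0.74 although its groups overlapped. Stx1a failed without WT replicate 1 (-0.61) or 3 (-0.76) or BK KO replicate 3 (-0.61), and Camk2d without replicates 2 and 3 of either genotype in turn (0.57 to 0.68). The adenylate cyclase gene Adcy4 (-0.39) and Cacna1s (0.16) did not pass. The GO term regulation of membrane potential was carried by Kcnma1, Hcn4 and Trpm4 among 7 listed hippocampus genes, and potassium channel activity by Kcnma1, Hcn4 and Abcc8 among 13.

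**Figure D5:**
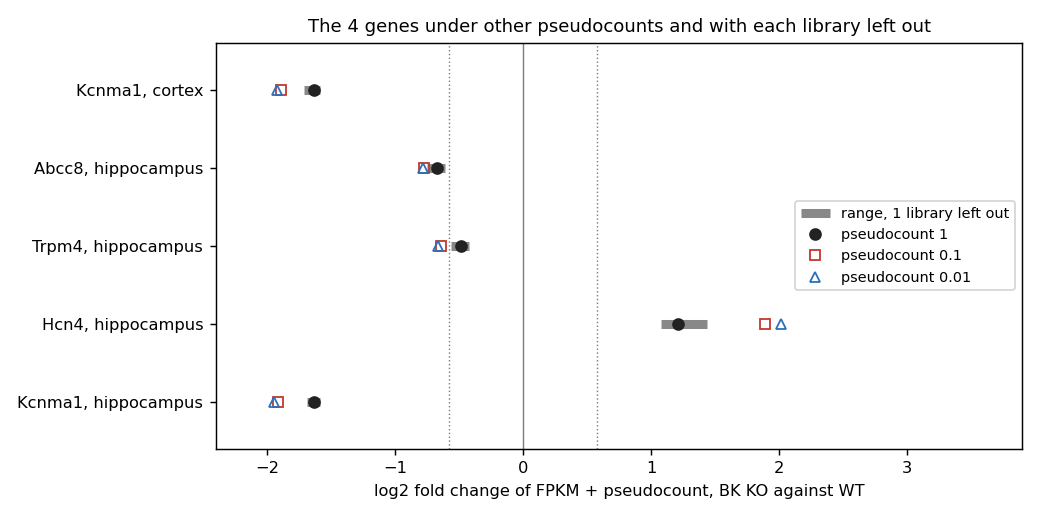
Log2 fold change (x axis, BK KO against WT) of the 4 genes with a pseudocount of 1 (black), 0.1 (red) and 0.01 (blue) and the range when 1 library at a time was left out (grey bar, pseudocount 1). Dotted lines mark 0.58 in each direction. Trpm4 crosses the line with the smaller pseudocounts, at -0.64 and -0.67, and Hcn4 moves most, from 1.21 to 2.02.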

How the data were processed

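Poly-A libraries of 12 samples were read as paired ends by the authors. The submitters' processing notes name mm9, DESeq 1.10.1 and DESeq2, and the aligner and counter are not given in the sources used here. The unit of the deposited values of each library is not named, and FPKM was inferred from the digits and the relation to transcript length. Base means, made by the authors, are a group's average signal after read counts were divided by size factors. The fold changes and p-values deposited by the authors come from their own comparison and were not used. 0 per-library columns were left unmatched.

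For each tissue limma 3.58.1 (R 4.3.3, lmFit and eBayes, two-sided) was run on log2(FPKM + 1) of all listed genes, and p-values were adjusted by Benjamini-Hochberg over these. The fit was run on simulated data in which the levels of low genes were raised, so listed genes at low FPKM were not covered. Permutation tests used scipy 1.17.1. Each limma p-value sets the difference between genotypes against the spread between the libraries of a group. The variance of each gene is drawn towards a value shared by the listed genes. Positions and the exon come from GENCODE M21 (GRCm38), with no coordinates taken from mm9. Members, lists and tests were chosen with earlier results of these data known. Named genes were the 4 members, the listed genes of the 11 channel and calcium-store lists (2 of them are counted but not reported by name here), the 3 genes nearest to each member and the insulin secretion genes. Markers came from 11 lists. Alternatives were pseudocounts of 0.1 and 0.01, a mean of at least 1 FPKM, limma's trend, a replicate block, a fold limit of 1, adjusted p, and each library left out.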

Additional observations from a re-analysis of the deposited data

How the results depend on the processing

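Kcnma1, Hcn4 and Abcc8 kept their direction and passed the test under the 11 alternatives run on each, which kept the fold limit of 0.58. Abcc8 is under a limit of 1. With 1 library left out at a time, the log2 fold change of Kcnma1 ran from -1.69 to -1.58 in hippocampus and from -1.71 to -1.58 in cortex, that of Hcn4 from 1.08 to 1.44, that of Abcc8 from -0.75 to -0.61 and that of Trpm4 from -0.56 to -0.42. Trpm4 passed only with pseudocounts of 0.1 (-0.64) and 0.01 (-0.67), which weigh low FPKM more. The Kcnma1 difference between tissues ran from -0.084 to 0.056 and changed sign in 6 of these fits, with limma p of 0.559 or more throughout. With the same pseudocounts in turn, 548 and 537 of the listed genes passed in hippocampus and 408 and 421 in cortex, and 23 and 22 channel and calcium-store genes passed in hippocampus and 7 and 9 in cortex. A fold limit of 1 left 35 listed genes and 3 channel genes in hippocampus and 25 listed genes in cortex. By adjusted p alone, 467 listed genes passed in hippocampus, and 344 listed and 8 channel genes in cortex. Leaving out 1 library gave 230 to 282 listed and 8 to 13 channel genes in hippocampus, the lowest channel count without BK KO replicate 2, and 135 to 180 and 3 to 4 in cortex. With the replicate block, Kcnma1 stayed at -1.63 in both tissues, 272 and 165 listed genes passed in hippocampus and cortex, and 14 and 3 channel genes. The labels do not state whether replicate numbers pair WT with BK KO mice. Correlations across genes between same-numbered WT and BK KO libraries, as deviations from their group means, were 0.02, 0.08 and -0.07 in hippocampus. In cortex they were -0.24, 0.12 and -0.22. Such correlations, over genes picked for a group difference, cannot show whether pairs exist. Unknown depth limits what can be said of genes under 1 FPKM, and 3 libraries a group limit every interval.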

Other observations

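The WT hippocampus library that lay nearest to the BK KO side was replicate 3 in 14 of the 25 listed channel and calcium-store genes, replicate 2 in 8 and replicate 1 in 3. Over all 652 listed genes it was replicate 3 in 211, replicate 2 in 288 and replicate 1 in 149. This comparison was chosen after the values were seen and was not tested.

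Same-numbered hippocampus and cortex libraries deviated from their group means together in BK KO mice, with correlations across the 196 shared genes of 0.51, 0.66 and 0.55, and less evenly in WT mice, with -0.00042, 0.49 and 0.02. Genes are not independent replicates, and although the methods took both tissues from the same mice, the labels do not tie a number to a mouse.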
